A study of Mus musculus with 17 samples.

Results

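The proximal end of mouse chromosome 14 (GRCm38) carries a dense array of near-identical genes, and its counts differed between the genotypes of this study from one end of the array to the other. The members described here are the rows of the count table whose gene starts below 10 Mb on that chromosome and whose counts sum to at least 170 over the 17 libraries. Of 193 rows in the segment, 57 met that minimum, 91 had fewer counts and 45 had none in any library; the whole table has 47643 rows. The segment was chosen by its own group values: it was picked because most of its rows were higher in transgenic libraries, and many lower in knockout libraries, than in control libraries. All comparisons of the members between genotypes are therefore descriptions of values that chose them, and no p-value is given for them.

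The libraries were made from polyA RNA of Foxp3-GFP+ regulatory T cells (Tregs), enriched for CD4+ cells and sorted by flow cytometry from the spleen of NOD mice, an inbred strain that develops autoimmune diabetes. All 3 groups carried the Foxp3-GFP reporter, which marks Tregs through the transcription factor that defines them. The 6 transgenic libraries came from mice with the Nfkbid transgene of the line labelled NOD-60A, the 5 knockout libraries from NOD-Nfkbid-KO mice and the 6 control libraries from NOD mice with the reporter alone. The protein made from Nfkbid is an atypical IkB that acts in the nucleus on NF-kB. Each transgenic library came from a single sample, whereas knockout and control libraries are described as pools of 2, so genotype and pooling cannot be told apart in comparisons with the transgenic group. The age of the mice, the promoter of the transgene and whether samples of a group came from separate litters are not stated in the labels.

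Library totals ran from 3133388 to 4726615 counts, and all libraries carry the same batch label. The library numbers in the column names were nevertheless divided in part by group. Those of the transgenic libraries formed a single run with those of some control libraries, and those of the knockout libraries formed a separate run. What these numbers stand for is not stated, and their part in the values below was not tested. Between 13476 and 13802 rows were detected in knockout replicates 2, 3 and 5, against 15039 to 17379 in the other 14 libraries. The Nfkbid row had 3.20 to 5.74 CPM (counts scaled to the library total) in control libraries, 7.28 to 10.3 CPM in transgenic libraries and 2.31 to 8.75 CPM in knockout libraries, so the knockout range overlapped both others. The Foxp3 row had 332 to 382, 246 to 347 and 222 to 362 CPM in the same order, and the 10 Treg markers summed to 974 to 1106 CPM in control, 1079 to 1185 in transgenic and 940 to 1010 in knockout libraries. The transgenic and knockout ranges of that sum did not overlap, nor did those of Izumo1r (203 to 297 against 113 to 155 CPM) and Ctla4 (76.4 to 145 against 44.2 to 75.3 CPM). The ranges of the other markers overlapped. Il2ra, Cd3g and Foxp3 had lower medians in transgenic (142, 16.2 and 326 CPM) than in knockout libraries (170, 23.2 and 333 CPM). Ikzf2, Cd4 and Cd28 had higher ones (211, 78.1 and 9.68 against 192, 76.1 and 8.12 CPM). Cd3e and Tnfrsf18 had at most 3.20 and 0.311 CPM in any library. Row names are not established identities in this table, since Actb had 0 to 7 counts, Eef1a1 0 to 2 and B2m 0 in every library. Names are used below as the table gives them, and what a gene is known to do is background only. Of 25 markers of other cell types, 3 were at 0 in every library (Cd79b, Hba-a1 and Hbb-bs). The summed level of the 6 myeloid markers moved with the transgenic group, with 439 to 799 CPM against 24.8 to 31.2 in control and 23.8 to 37.5 in knockout libraries. The Tyrobp row carried that difference, because the other 5 markers summed to 10.1 to 17.4, 15.4 to 19.6 and 11.1 to 22.3 CPM. The 3 plasma cell markers summed to 361 to 560 CPM in knockout libraries, above the 304 to 348 CPM of control libraries, and to 340 to 474 CPM in transgenic libraries. Nearly all of that sum was Xbp1, with 358 to 560, 300 to 346 and 335 to 473 CPM in the same order. The part of these marker levels in the values below was not tested.

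Tandem arrays of this kind arise by repeated duplication of a stretch of chromosome, which leaves many copies with almost the same sequence. The genes at this site include the takusan family, which descends from part of the scaffold gene Dlg5 and is known from neurons, where its products act on synaptic scaffolds; no role in Tregs is taken as given here. RefSeq lists takusan as a synonym of 2610042L04Rik, a row of the segment on the plus strand at 4334763 to 4354688. That row had only 9.66 counts in all 17 libraries and so is not a member, but it shares 67-base stretches with 40 members. A read of 67 bases, the length sequenced here, that lies within such a stretch cannot be placed on 1 copy.

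The members fell into 4 classes by annotation and shared sequence. The first holds 40 rows annotated as protein coding in GENCODE, here called coding copies, which run from 3049285 to 7568566. Their arrangement is split by strand, with 20 on the plus strand starting at or before 5071040 and 20 on the minus strand starting at 5253907 or later. RefSeq's gene table holds 25 of the 40 as protein coding, 4 as transcribed pseudogenes, 4 as pseudogenes and 1 as a miscellaneous RNA, and has no entry under the same symbol for 6. The second class holds 4 noncoding copies (Gm26886, Gm26650, Gm26552 and Gm26893), annotated as processed transcripts on the minus strand. The third holds 5 processed pseudogene copies of Esd, the gene of the esterase D enzyme (Esd-ps, Gm17222, Gm3348, Gm5456 and Gm17121). The last holds 8 rows with no 67-base stretch in any other row of the segment (among them Gm8396, Dnase1l3, Abhd6, Rpp14, Pxk, Pdhb and Kctd6), here called single-copy rows, which start between 7801208 and 8214140.

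Every coding copy could be aligned without gaps over a stretch of coding sequence of 67 bases. This window was picked as one that many copies share. Likeness within it was thus built in and does not measure how alike the copies are elsewhere. The window is given because a read of 67 bases is the unit that was counted. The bases here, and those of the promoters below, are from the GRCm38 reference. The sequence and number of copies in the NOD mice of this study were not examined. In form A, capitals are absent; in forms B, C and D, capitals mark the bases that differ from form A.
Form A: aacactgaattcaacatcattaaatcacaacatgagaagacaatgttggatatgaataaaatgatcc
Form B: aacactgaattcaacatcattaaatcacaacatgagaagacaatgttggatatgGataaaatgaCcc
Form C: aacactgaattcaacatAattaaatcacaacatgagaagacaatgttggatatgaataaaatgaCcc
Form D: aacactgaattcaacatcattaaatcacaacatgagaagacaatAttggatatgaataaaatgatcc
Form A occurred in 30 coding copies, among them Gm2897 (chr14:3071213-3071279, plus strand), and these 30 rows held 93.8% of the counts of the class. Form B, with 2 differences, occurred in 7 copies (Gm5795, Gm3115, Gm3149, Gm3159, Gm8159, Gm3526 and Gm8374). Form C, also with 2 differences, occurred in Gm9602 and Gm8356, and form D, with 1 difference, in Gm3248 only among the 40. Over whole transcripts, a coding copy shared a median of 82.7% (34.0 to 100%) of its 67-base stretches with other rows of the segment and had 39 other members as partners in the median.

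Fractional counts are a partial sign of how far the authors' counting divided reads between rows. Of the member values above 0, 74.0% were not whole numbers, against 17.7% over all rows of the table. In the coding copies the median row had 100% of its values above 0 fractional. The noncoding copies had 0 to 16.7%, although 83.5 to 100% of their 67-base stretches occur in other rows. Among the single-copy rows 7 had whole counts throughout, while every value of Pxk was fractional. Why fractional counts did not follow shared sequence in the noncoding copies and in Pxk was not tested. Because of the shared stretches, values of single coding, noncoding and Esd copies are uncertain. The summed level of a class does not depend on how reads were divided within it. The sum does depend on how reads were divided with rows outside the class. Of the 67-base stretches of a coding copy, a median of 25.8% (5.42 to 48.7%) also occur in transcripts outside the segment. For noncoding copies it was 46.0 to 69.3% and for Esd copies 0.510 to 16.1%. In addition, 24 members overlap another row with counts, 19 of them on the opposite strand, and the sources used here do not say whether strand was used in counting.

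The members together took 0.511% ± 0.129 (SD, n = 6) of all counts in transgenic libraries, 0.0792% ± 0.0130 (SD, n = 6) in control libraries and 0.0425% ± 0.00605 (SD, n = 5) in knockout libraries. Single libraries ranged from 0.302 to 0.691%, from 0.0657 to 0.0965% and from 0.0340 to 0.05004% in that order, so no 2 groups overlapped. These are bulk samples, in which fewer cells with an RNA and less of that RNA per cell cannot be told apart. Fitted as 1 row with edgeR, the sum was higher in transgenic than in control libraries by 2.74 ± 0.16 (SE) on the log2 scale, and the knockout minus control value was -0.75 ± 0.16 (SE). The gap between knockout and control depended on the class, as the following values show.

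The coding copies carried most of these counts. Their summed level was 2603 CPM in the lowest, 4541 in the median and 6156 in the highest transgenic library, against 337, 419 and 634 CPM in control libraries. The 5 knockout libraries had 116, 72.6, 106, 49.3 and 154 CPM. Every transgenic library thus lay above every control library, and every control library above every knockout library. The mean of the transgenic group was 9.83 times that of control, and the control mean was 4.60 times that of knockout. On the log2 scale the fitted difference of the sum was 3.35 ± 0.24 (SE) for transgenic minus control and -2.05 ± 0.25 (SE) for knockout minus control. The noncoding copies followed the same order at a lower level, with a mean of 150 ± 76.1 CPM (SD, n = 6) over transgenic libraries, one of 14.1 ± 3.57 CPM (SD, n = 6) over controls and one of 1.89 ± 2.64 CPM (SD, n = 5) over knockouts. Knockout replicates 2 and 5 had no count in any of the 4 noncoding copies. The Esd copies summed to 201 to 309 CPM in transgenic, 126 to 187 in control and 107 to 160 in knockout libraries, so the last 2 groups overlapped. The single-copy rows summed to 171 to 212, 171 to 182 and 160 to 224 CPM, and all 3 groups overlapped.

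**Figure D1:**
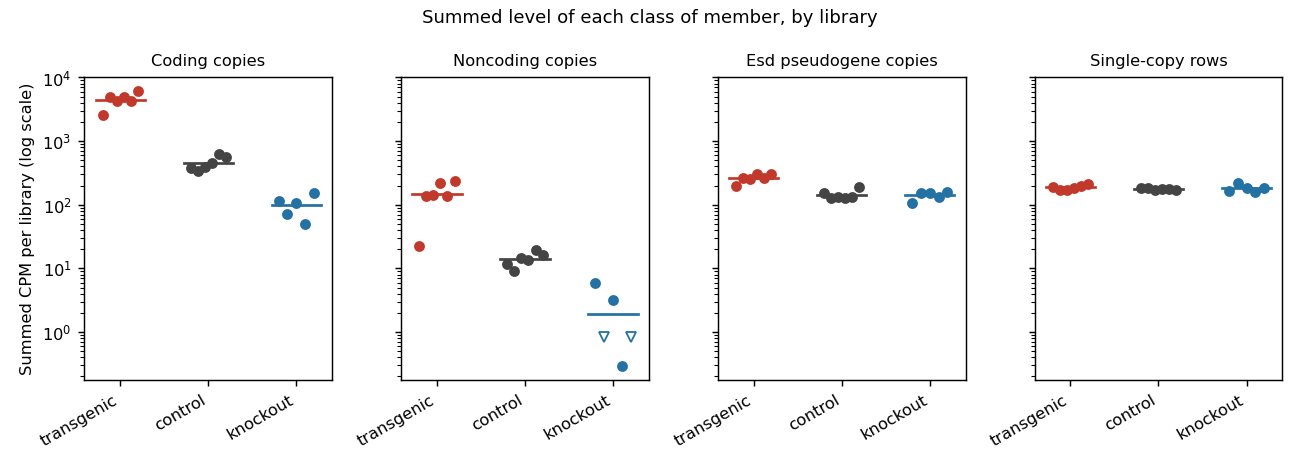
Summed CPM of each class of member (log axis) in each library, with transgenic, control and knockout groups side by side; points are libraries, lines are group means, and open triangles mark libraries with no count, drawn at the level of 3 counts. The coding copies stand at 2603 to 6156 CPM in transgenic, 337 to 634 in control and 49.3 to 154 in knockout libraries, while the single-copy rows lie between 160 and 224 CPM in all 17.

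Transgenic replicate 1 stood below the rest of its group in the copies. It had 2603 CPM over the coding copies against 4204 to 6156 in the other 5 libraries, and 22.9 CPM over the noncoding copies against 137 to 234. In the single-copy rows it had 193 CPM, within the 171 to 212 of the others. Of the 49 copy rows with counts in the transgenic group, this library was the lowest in 38, and transgenic replicate 6 was the highest in 25. Without transgenic replicate 1, the ratio of transgenic to control means was 10.7 for the coding copies and 12.5 for the noncoding copies. Control replicate 5 was the highest control library in 24 of 49 copy rows. Among knockout libraries replicate 5 was the highest in 14 of the 37 copy rows with any knockout count.

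Gm2897 had the highest total of all members, with 24657 counts. It is a coding copy on the plus strand (3049285 to 3076840) at the start of the array. In transgenic libraries it had 602 CPM at the lowest, 1110 at the median and 1513 at the highest, and in control libraries 90.6, 113 and 179 CPM. The knockout libraries had 51.8, 36.6, 46.2, 15.2 and 62.6 CPM. The groups did not overlap, and the log2 values were 3.15 ± 0.27 (SE) for transgenic minus control and -1.42 ± 0.28 (SE) for knockout minus control. Gm2897 made up 24.0% ± 0.781 (SD, n = 6) of the coding copies' counts in transgenic libraries, 27.3% ± 1.54 (SD, n = 6) in control and 42.0% ± 7.24 (SD, n = 5) in knockout libraries.

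Gm3020, also on the plus strand (3652030 to 3673215), showed the widest gap between control and knockout among the 6 coding copies with the highest totals. Its control libraries had 17.5 to 49.9 CPM with a median of 42.2, and its knockout libraries had 0, 2.53, 1.71, 2.33 and 0 CPM. Its transgenic libraries had 281 to 693 CPM with a median of 508. The mean in transgenic libraries was 13.3 times the control mean, and the control mean was 29.5 times the knockout mean.

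Gm3411 lies on the minus strand (6259747 to 6287250) and was the highest copy of that strand. Its transgenic libraries had 173 to 553 CPM with a median of 360, and its control libraries 21.5 to 58.0 with a median of 37.8. The knockout libraries had 20.2, 3.56, 23.3, 0 and 25.8 CPM, of which replicates 3 and 5 lay inside the control range. Of the other high copies, Gm10340 had means of 462, 45.1 and 9.84 CPM in transgenic, control and knockout libraries, Gm3095 had 379, 35.1 and 4.02 CPM, and Gm5796 had 279, 23.0 and 4.05 CPM. In these 3 rows no 2 groups overlapped. The knockout mean of Gm3095 rests largely on replicate 5 (12.3 CPM), with less than 4 CPM in each of the other 4 (0, 1.46 and 2.74 CPM in replicates 1 to 3), and its knockout minus control value ran from -4.09 to -2.62 on the log2 scale when any 1 library was left out.

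A further set of coding copies, 11 of the 40, had counts in every transgenic library and none in any knockout library. Gm3002 had 75.0 to 106 CPM in transgenic libraries and 0 to 10.3 in control libraries, with 1 control library at 0. Since all 5 knockout libraries were at 0, its transgenic mean was at least 525-fold higher and its control mean at least 32.6-fold higher than knockout, taking 3 counts over the whole knockout group (0.168 CPM) as the floor. Gm3252 had 18.0 to 49.6 CPM in transgenic and 3.16 to 9.77 in control libraries, at least 203-fold and 36.9-fold higher than knockout. Gm3526 had 31.9 to 55.4 and 1.31 to 11.7 CPM, at least 242-fold and 31.7-fold higher, and Gm3739 had 17.3 to 61.3 and 3.26 to 5.70 CPM, at least 256-fold and 26.9-fold higher. Gm8108 had 21.7 to 77.9 and 0.312 to 5.601 CPM, at least 339-fold and 21.5-fold higher. In all, 12 members were at 0 in every knockout library, the 11 coding copies and the noncoding Gm26893. A further count, of members at 0 in at least 1 knockout library, gave 44 with these 12 included. In each of the 12, transgenic libraries alone held enough counts for the minimum total, the fewest being 171 in Gm3696. Gm2956 had 192 of its 194 counts there. The choice of members thus let in rows with no knockout count, and no share of such rows over the whole table is given. A knockout library had 26 to 34 members at 0, a control library 3 to 8 and a transgenic library 0 to 2. Replicates 2, 3 and 5, in which fewer rows of the whole table were detected, had 20 to 28 coding copies at 0, and knockout replicates 1 and 4 had 23 to 27.

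The copies did not differ to the same degree. Gm10409 had the smallest transgenic minus control value of the coding copies, 1.90 ± 0.53 (SE) on the log2 scale, with 30.5 to 82.8 CPM against 3.25 to 31.2 CPM and overlapping groups. The largest fitted value, 6.32 for Gm2956, rests on a control group with counts in replicate 4 alone (0.719 CPM), while its transgenic libraries had 1.05 to 18.7 CPM. Gm3383 had 14.8 to 76.6 CPM in transgenic and 0 to 7.08 in control libraries, and 8.39 CPM in knockout replicate 4 with the other knockout libraries at 0. In Gm2974 the only knockout library above 0 was replicate 5 with 0.605 CPM, against 5.29 to 18.8 CPM in control and 65.3 to 225 in transgenic libraries.

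**Figure D2:**
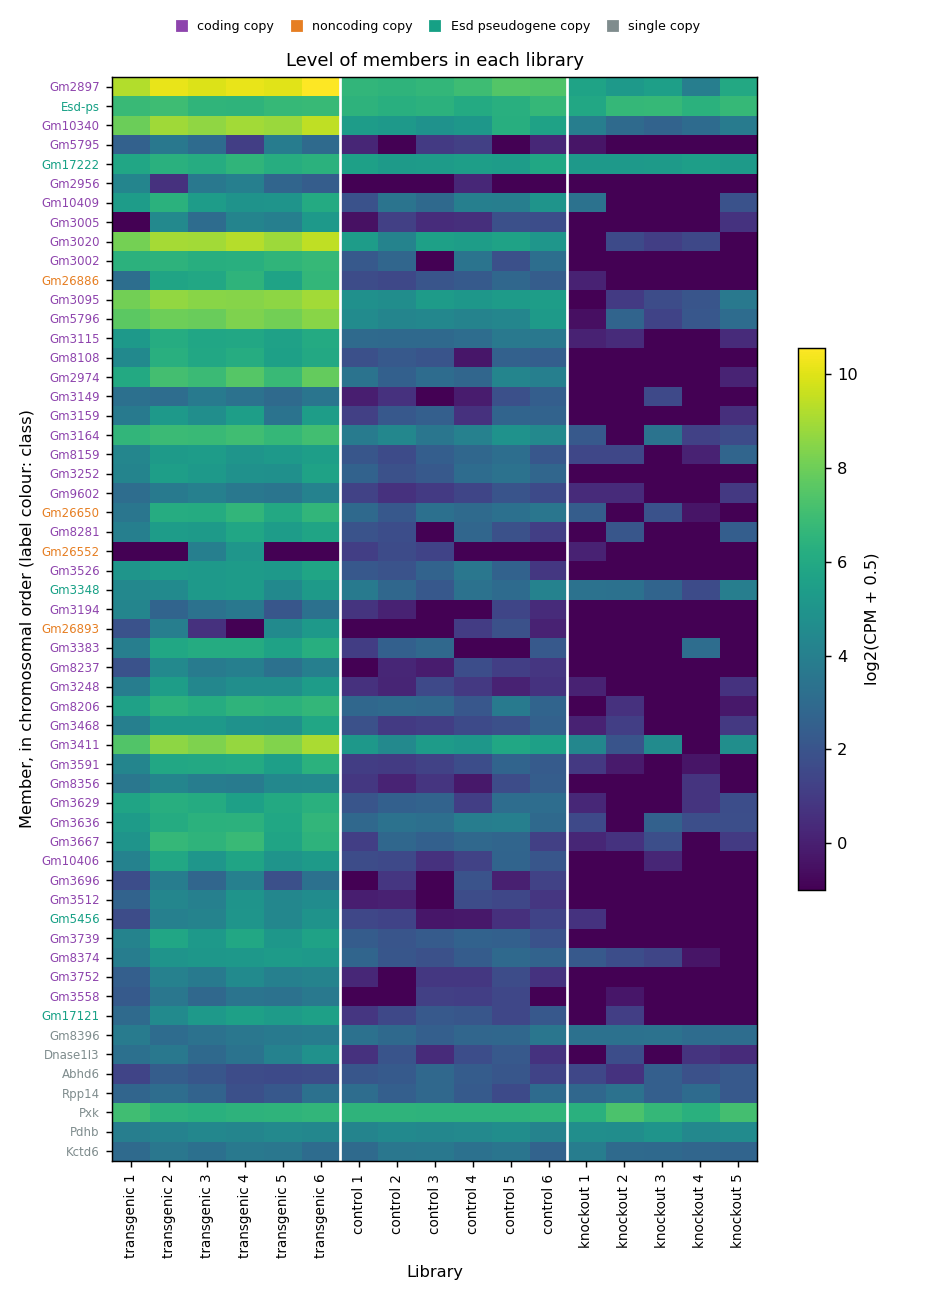
Level of 56 of the 57 members as log2(CPM + 0.5), with members in chromosomal order from top to bottom, libraries in columns by group and label colours giving the class. The copies are brightest in the 6 transgenic columns and often at 0 in the knockout columns, while the single-copy rows drawn at the bottom, apart from Dnase1l3, change little across the columns.

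Counted over the members, 56 of the 57 passed the filter on low counts and only Gm26552 did not. Most of its counts came from transgenic replicates 3 and 4 (15.4 and 33.7 CPM), with 0 in the other 4 transgenic libraries. Control replicates 1 to 3 had 1.69, 2.62 and 1.99 CPM and knockout replicate 1 had 0.564 CPM. In the comparison of transgenic with control libraries, 48 members were called higher by edgeR at an adjusted p of 0.05, against 5.23% of all 9986 rows tested. None was called lower by edgeR, DESeq2 or limma voom, nor at an unadjusted p of 0.05, against 2.17% of all rows. All transgenic libraries lay above all control libraries in 41 members, which held for 3.76% of all rows tested. For knockout against control, 21 members were called lower (1.01% of all rows) and 0 higher by edgeR (0.881%), where 2 were higher at an unadjusted p of 0.05 and DESeq2 and limma voom called 0. All knockout libraries lay below all control libraries in 18 members (2.15% of all rows tested). The count of lower members depended on the analysis, with 32 by DESeq2, 12 by limma voom, 34 with no filter on low counts and 13 with only the 2 groups compared. Without knockout replicates 2, 3 and 5 it was 13, and leaving out any 1 library gave 18 to 26. For transgenic against knockout, 48 members were called higher (6.34% of all rows) and 1 lower (4.33%), and all transgenic libraries lay above all knockout libraries in 46 members (4.57%). The 3 comparisons share libraries and the rule used them, so these counts only describe how the members were chosen.

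By class, the 40 coding copies were all called higher in transgenic than in control libraries, against 5.23% of all 9986 rows tested. Of these copies, 20 were called lower in knockout than in control libraries, against 1.01% of all rows. The members were chosen by such values, so these counts are descriptions. The median log2 value over the tested members was 3.33 for transgenic minus control and -2.27 for knockout minus control, where the medians of all tested rows were -0.01 and -0.02. With the members at 0 in knockout set to their bound, the second median was -2.26. The coding copies alone had medians of 3.47 and -2.73.

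**Figure D3:**
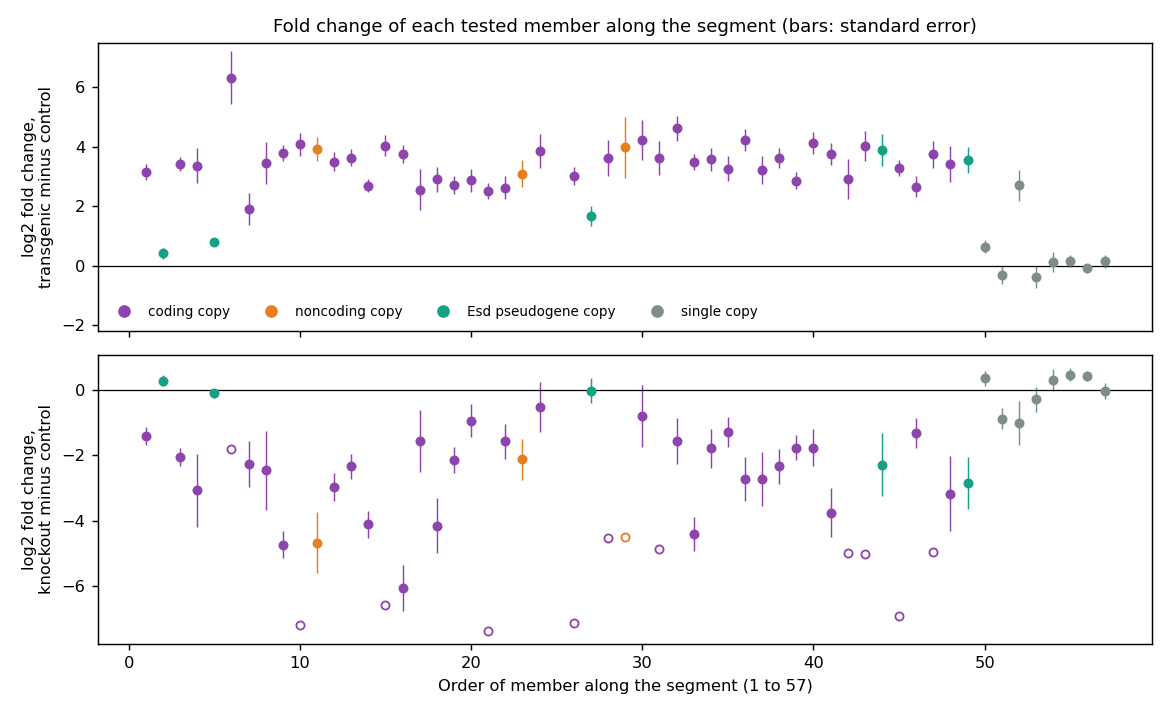
Log2 fold change of each of the 56 tested members against its order along the segment, transgenic minus control above and knockout minus control below; bars are standard errors, colours the class, and open points are members with no count in any knockout library, whose fitted value depends on the prior count. In the upper plot the coding copies lie between 1.90 and 6.32, and the single-copy rows at the right lie between -0.39 and 0.64 apart from Dnase1l3 at 2.71.

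The groups differed by a similar factor in both arms of the array, although the arms differed in level. The 20 plus-strand copies summed to 3422 ± 860 CPM over the 6 transgenic libraries (SD), 354 ± 93.9 CPM over the 6 control libraries and 74.3 ± 30.7 CPM over the 5 knockout libraries. The 20 minus-strand copies summed to 1086 ± 320, 104.3 ± 25.7 and 25.3 ± 11.8 CPM. The ratio of transgenic to control means was 9.66 in the plus arm and 10.4 in the minus arm, and that of control to knockout means was 4.77 and 4.12. The plus arm held 76.2% ± 1.75 (SD, n = 6) of the coding copies' counts in transgenic, 77.1% ± 1.92 (SD, n = 6) in control and 74.7% ± 6.67 (SD, n = 5) in knockout libraries, so the division between the arms differed between groups by less than 1 SD of the knockout libraries.

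The order of the copies by level was much the same in transgenic and control libraries. Per kilobase of exon, Gm2897 had the highest mean of the members in transgenic libraries, 548 CPM per kb, followed by Gm3020 with 264, Gm10340 with 262, Gm3095 with 242, Gm3411 with 184 and Gm5796 with 153. In control libraries Esd-ps was the highest member with 98.9 CPM per kb, ahead of Gm2897 with 63.8 and Gm17222 with 53.5, and the ranges of Esd-ps (79.9 to 123) and Gm2897 (45.8 to 90.4) overlapped. Across the 40 coding copies, Spearman's rho between the group means per kilobase was 0.92 for transgenic and control, and 0.68 for control and knockout. Copies share reads and libraries, so these are descriptions across rows. In knockout libraries 11 of the 40 copies were tied at 0, and the part of these ties in the lower rho was not tested. The 6 copies with the highest totals held 68.4% ± 1.56 (SD, n = 6), 67.2% ± 3.26 (SD, n = 6) and 75.4% ± 5.38 (SD, n = 5) of the coding copies' counts in transgenic, control and knockout libraries. The share of a copy's 67-base stretches found in other rows had a Spearman's rho of 0.23 with its transgenic minus control value and -0.01 with its knockout minus control value.

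**Figure D4:**
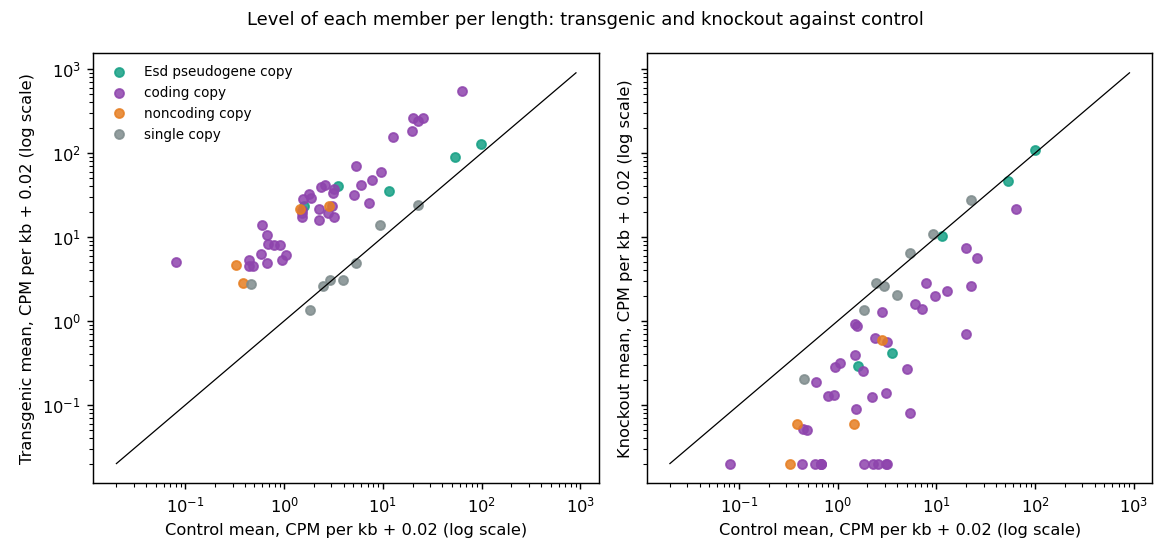
Mean level per kilobase of exon of each member in transgenic libraries (left) and knockout libraries (right) against control libraries, in CPM per kb with 0.02 added so that members at 0 can be drawn, on log axes; the line marks equal levels and colours give the class. Coding copies lie above the line on the left over the whole range of levels and below it on the right, and single-copy rows lie near it apart from Dnase1l3.

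Each form of the coding window had the same order of groups, transgenic above control above knockout. Summed over form A, the transgenic mean was 10.04 times the control mean, over form B 6.79 times and over form C 7.41 times. The single copy of form D, Gm3248, had 28.3 CPM in transgenic and 1.20 CPM in control libraries, 23.6 times. Control means were 4.54 times those of knockout for form A, 5.83 times for form B and 4.68 times for form C. Form D had 0 in 3 knockout libraries and 0.578 and 1.13 CPM in replicates 1 and 5, so no ratio is given for it.

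Promoters of a few members are shown because the members move together along the array and their sequences show how far the copies are alike upstream of the gene. RefSeq's table for GRCm38.p6 holds promoters of 300 bases around the start for 31 of the 57 members. Of the 3 shown, Gm2897 and Gm3411 are the copies with the highest totals on the plus and the minus strand and share a 12-base run, GGCCATGGGAGG, in capitals; Gm5796 lacks it. The run is the longest found in 4 of 6 promoters compared (those 3 and Gm3095, Gm2956 and Gm3739).
Gm2897 (chr14:3049035-3049334, plus strand): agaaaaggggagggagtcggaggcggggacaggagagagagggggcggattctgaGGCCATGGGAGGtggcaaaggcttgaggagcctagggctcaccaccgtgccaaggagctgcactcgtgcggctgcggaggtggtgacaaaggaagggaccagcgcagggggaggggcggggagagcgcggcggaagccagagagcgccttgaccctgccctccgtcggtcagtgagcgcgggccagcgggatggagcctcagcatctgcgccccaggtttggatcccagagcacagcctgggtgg
Gm3411 (chr14:6287201-6287500, minus strand): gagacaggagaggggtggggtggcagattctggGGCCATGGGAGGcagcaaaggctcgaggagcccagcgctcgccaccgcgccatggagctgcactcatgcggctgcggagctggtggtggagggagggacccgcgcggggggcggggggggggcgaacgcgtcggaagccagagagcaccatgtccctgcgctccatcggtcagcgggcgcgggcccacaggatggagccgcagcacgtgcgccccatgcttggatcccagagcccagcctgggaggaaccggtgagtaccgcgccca
Gm5796 (chr14:4023691-4023990, plus strand): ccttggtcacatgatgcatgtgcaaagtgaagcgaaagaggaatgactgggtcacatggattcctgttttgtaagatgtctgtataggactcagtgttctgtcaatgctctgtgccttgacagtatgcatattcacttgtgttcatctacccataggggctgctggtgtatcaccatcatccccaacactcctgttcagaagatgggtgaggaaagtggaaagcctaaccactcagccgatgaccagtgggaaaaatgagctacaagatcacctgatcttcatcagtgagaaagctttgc
Searched on both strands, GGCCATGGGAGG occurred in 13 of the 31 members with a promoter and in 0.0731% of the 32851 promoter entries, and 1 gene outside the segment held it. The run was picked from promoters of members, so its frequency among members is no test. The letters GGGCGG, the core of a GC box, occurred in 16 members and in 35.7% of all entries. A member was counted if any of its entries held the letters, so the counts of members and the percents of entries are unlike measures. The copies without the run, such as Gm5796 with 12.1 times as much in transgenic as in control libraries, and those with it, such as Gm2897 with 8.58 times, were both higher in the transgenic group.

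The noncoding copies lie on the minus strand between 3822531 and 5574342. Gm26886 (3822531 to 3884087), which overlaps Gm3002 on the opposite strand, had 8.61 CPM in transgenic replicate 1 and 51.6 to 101 in the other 5 transgenic libraries. It had 2.32 to 6.70 CPM in control libraries and 0.564 CPM in knockout replicate 1, with the other knockout libraries at 0. Gm26650 (4867977 to 4930414) had 11.0 to 97.6 CPM in transgenic and 4.07 to 11.0 CPM in control libraries, so its groups met at transgenic replicate 1. Its knockout libraries had 4.80, 0, 3.24, 0.289 and 0 CPM. Unlike most coding copies, these 2 rows had nearly all whole counts, with 0% and 6.67% of the values above 0 fractional.

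The Esd copies differed among themselves. Esd-ps (3051653 to 3052499) lies within Gm2897 on the opposite strand and had 92.6 to 125 CPM in transgenic, 67.7 to 105 in control and 59.8 to 108 in knockout libraries, so all groups overlapped. Gm17222 had 56.9 to 94.7, 39.4 to 59.5 and 36.2 to 43.9 CPM, with a transgenic minus control value of 0.81 ± 0.13 (SE) on the log2 scale. Gm3348 had 20.7 to 40.7 CPM in transgenic and 4.07 to 17.2 in control libraries, which did not overlap, and 2.58 to 15.02 in knockout libraries. The remaining 2, Gm5456 and Gm17121, lie near the far end of the array and had transgenic means 14.8 and 11.4 times their control means. Both were at 0 in 4 of 5 knockout libraries. The knockout minus control values were 0.29 ± 0.18 (SE) for Esd-ps, -0.09 ± 0.14 (SE) for Gm17222 and -0.02 ± 0.38 (SE) for Gm3348, against -2.28 ± 0.96 (SE) for Gm5456 and -2.86 ± 0.80 (SE) for Gm17121. The Esd row itself, which starts at 74732297 on the same chromosome, had 4.04 to 7.07 CPM in transgenic libraries, 5.43 to 11.3 CPM in control libraries and 3.36 to 10.7 CPM in knockout libraries.

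Between the array and 10 Mb, 1 of the 8 members was called higher in transgenic than in control libraries, against 5.23% of all rows tested. Dnase1l3 (7964533 to 7994573, minus strand) encodes a secreted DNase that degrades DNA in chromatin. It had 7.16 to 28.0 CPM in transgenic and 0.851 to 4.15 CPM in control libraries, which did not overlap, and 0, 2.80, 0, 1.16 and 0.840 CPM in knockout libraries. Its log2 value for transgenic minus control was 2.71 ± 0.52 (SE) and that for knockout minus control was -1.01 ± 0.68 (SE). Its counts were whole and no other row of the segment shares a 67-base stretch with it.

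The neighbours of Dnase1l3 had overlapping transgenic and control libraries. Pxk, which encodes a phox-domain protein with a kinase-like region, was the highest single-copy row with means of 96.2 ± 17.5 CPM (SD, n = 6), 90.6 ± 2.62 (SD, n = 6) and 112 ± 33.5 (SD, n = 5) in transgenic, control and knockout libraries. Pdhb, which encodes a subunit of pyruvate dehydrogenase, had 14.9 to 21.5 CPM in transgenic and 20.8 to 30.8 in knockout libraries and was the 1 member called lower in transgenic than in knockout libraries, with a log2 value of -0.51 ± 0.15 (SE). That call was lost with the replicate block (-0.49), with only the 2 groups compared (-0.52), with no filter on low counts (-0.46), and without any 1 of 6 single libraries (transgenic replicates 2, 4 and 6 and knockout replicates 2, 3 and 5), where the value lay between -0.51 and -0.42. Without those 3 knockout replicates together it was -0.24. Of the other single-copy rows, the monoacylglycerol lipase gene Abhd6, the RNase P subunit gene Rpp14, the BTB-domain gene Kctd6 and the pseudogene Gm8396 had group means between 3.12 and 11.5 CPM and log2 values for transgenic minus control between -0.39 and 0.64.

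Other known genes of the segment gave little to compare. Oit1 had 3 counts over the 17 libraries and Acox2, Fam107a and Fhit had 0. Just inside the minimum of 170 counts were Gm5795 with 175 and Gm26552 with 187, and just outside it were Gm3488 with 149 and Gm5797 with 142. Gm3488 had 2.44 to 11.1 CPM in transgenic, 0 to 0.465 in control and 0 in all knockout libraries, and Gm5797 had 2.22 to 10.8, 0.284 to 1.91 and 0 CPM. The first rows of sufficient count beyond 10 Mb were 3830406C13Rik, at 12284173, with 2.18 to 6.06 CPM in transgenic and 1.28 to 6.22 in control libraries, and Gm11100, at 13918444, with 38.1 to 50.1 and 34.7 to 46.9 CPM.

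Along chromosome 14 the rows called higher in transgenic than in control libraries were concentrated in the array. Up to 7568566, where the last coding copy ends, 51 of 52 tested rows were called higher, Esd-ps being the 1 that was not. From there to 10 Mb it was 1 of 8 rows. From 10 Mb to the end of the chromosome it was 14 of 304 rows (4.61%, against 5.23% of all 9986 rows tested). One of these 14 was Gm2237 (19563800 to 19585135, minus strand), which shares 67-base stretches with 40 members although it lies outside the segment. It had 30.8 CPM in transgenic replicate 1 and 103 to 137 in the other 5, 9.01 to 20.5 in control libraries and 4.60, 0.674, 4.28, 0.318 and 2.34 in knockout libraries. Its order of groups was that of the coding copies, with which it can share reads, and its log2 values were 2.99 ± 0.31 (SE) and -2.31 ± 0.44 (SE). It was chosen for description after its values had been seen. The row of Dlg5, the gene from which the family descends, had 0 to 5.29 CPM in transgenic, 1.41 to 3.78 in control and 0 to 1.73 in knockout libraries.

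The first 10 Mb of the other chromosomes gave a lower share of calls. Of 763 rows tested there, 53 (6.95%) were called higher and 23 (3.01%) lower in transgenic than in control libraries, and the highest share on any of them was 25% on chromosome 9, with 3 of 12 rows. On chromosome 14 it was 52 of 60 rows (86.7%), and over all 9986 rows tested it was 5.23%. The segment was chosen for this, so the difference is given as a description.

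**Figure D5:**
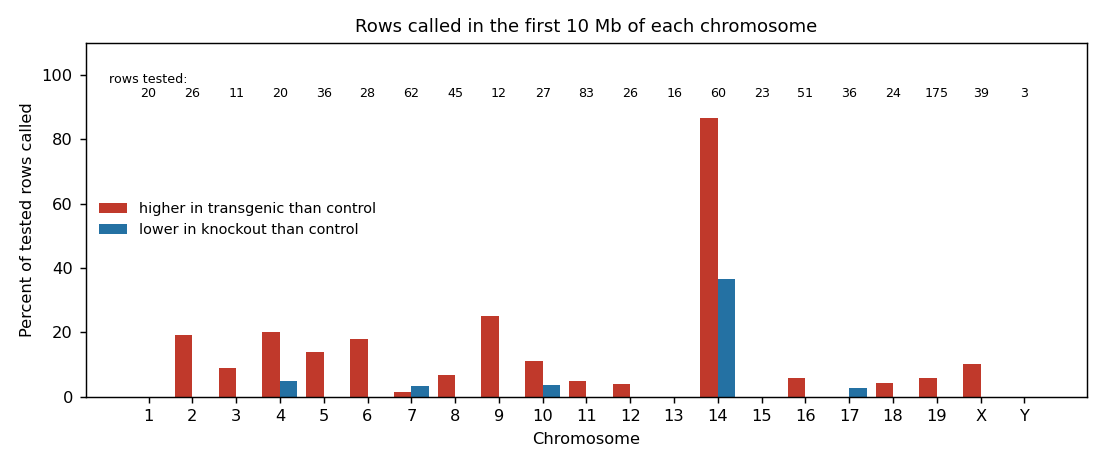
Percent of tested rows in the first 10 Mb of each chromosome that were called higher in transgenic than in control libraries (red) or lower in knockout than in control libraries (blue), with the number of rows tested above each pair of bars. Chromosome 14 stands at 86.7% for the first, and the next highest is chromosome 9 at 25%.

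Outside the segment, 5 rows had levels most like those of the summed segment, ranked by Pearson's correlation of log2 CPM over the 17 libraries among 9257 rows with a mean of at least 10 counts. They were Ergic1 on chromosome 17 (r = 0.98), Gm18537 on chromosome 6, Cers5 on chromosome 15, Vps13d on chromosome 4 and Il1rn on chromosome 2 (r = 0.97). The libraries fall into groups, so this likeness mainly repeats the order of the groups and is a description. The size of the difference varied widely, with group means of 194, 105 and 88.7 CPM in transgenic, control and knockout libraries for Ergic1, 1279, 477 and 411 CPM for Vps13d, 69.4, 10.9 and 6.79 CPM for Cers5, and 15.9, 1.28 and 0.502 CPM for Il1rn.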

How the data were processed

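Expected counts per gene for 17 libraries were deposited by the authors. Per the submitters' processing notes, Bowtie2, edgeR and GRCm38 were used, and per the labels Ensembl 102 gave the transcripts and reads had 67 bases with a 9-base molecular identifier. The sources used here do not say whether identifiers removed duplicates; floors cover counting error alone. Of 47643 rows, 47224 matched GENCODE M21 coordinates (GRCm38), from which classes and shared 67-base stretches were computed. CPM is a count over the library total, and 3 counts correspond to 0.635 to 0.957 CPM.

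Rounded counts were fitted with edgeR 4.0.16 in R 4.3.3 (quasi-likelihood, TMM factors, filterByExpr, all 17 libraries), with Benjamini-Hochberg adjustment over 9986 rows at 0.05. The common biological coefficient of variation was 0.241. Each SE of a log2 value is its absolute value divided by the square root of the quasi-likelihood F. It thus restates the test statistic of that row and is not a separate measure of spread. DESeq2 1.42.0, limma 3.58.1 with voom, other factors and filters, fits of 2 groups, a replicate block and leaving out each library were alternatives. Spread is that between these libraries. Any 2 libraries of a group differed by more than sampling noise.

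Members, lists and alternatives were chosen with earlier results of these data known. Named members were the 15 with the highest totals, the 8 highest and 8 lowest log2 values of each comparison, known genes of the segment, and the rows nearest each threshold; others mentioned illustrate a class. Some values of 1 member are not reported here.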

Additional observations from a re-analysis of the deposited data

Results flagged for a closer look

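Of 114 groups of values examined (the segment's share of counts, the class sums and the named members, each in each genotype), in 11 the highest or lowest library was separated from its group by a gap that is large against the group's range. Chance alone does this in about 1 of 20 groups, so these are listed as values only. In transgenic libraries these were Pxk in replicate 1 with 130 CPM and Gm3526 in replicate 6 with 55.4 CPM. In knockout libraries they were Gm3383 in replicate 4 with 8.39 CPM, Gm2974 in replicate 5 with 0.605 CPM, and in replicate 1 Kctd6 with 14.7 CPM, Gm3591 with 1.38 CPM, Gm5795 with 0.285 CPM and Gm26552 with 0.564 CPM. In control libraries they were Gm5796 and Pxk in replicate 6 with 39.4 and 95.6 CPM, and Gm2956 in replicate 4 with 0.719 CPM. Several of these, such as Gm2974, Gm5795, Gm26552 and Gm2956, are a single library above 0 in a group otherwise at 0. Neither the share of counts nor any class sum held such a library.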

How the results depend on the processing

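For transgenic against control, the members called higher numbered 42 to 48 when any 1 library was left out and 44 to 52 under the other alternatives, except that a minimum total of 1000 counts, which leaves fewer members, gave 21; it also gave 21 for transgenic against knockout. The count lower in knockout than in control was the least stable: it was 21 in the fit reported, 34 with no filter on low counts, 32 with DESeq2, 12 with limma voom, 13 with only the 2 groups compared, 13 without knockout replicates 2, 3 and 5 together and 18 to 26 without any 1 library; the cause was not tested. Leaving out knockout replicate 4 gave 1 member called higher in knockout. The 1 member lower in transgenic than in knockout (Pdhb) became 0 with no filter, with only the 2 groups compared, with the segment ending at 8 Mb (which removes it), without the 3 knockout replicates together, and without transgenic replicate 2, 4 or 6 or knockout replicate 2, 3 or 5. The fitted value of the sum was -1.12 for knockout minus control and 3.87 for transgenic minus knockout without knockout replicates 2, 3 and 5, and -1.14 and 4.11 with the segment ending at 8 Mb, which drops 5 single-copy rows. Left-out libraries gave -0.84 to -0.64 and 3.39 to 3.59. The end at 8 Mb also moved the share of counts to 0.0270% in knockout and 0.0662% in control. Totals without mitochondrially encoded rows raised it to 0.651, 0.101 and 0.0567% in transgenic, control and knockout libraries. Of 2584 values of named members, 2517 moved by less than the spread between libraries, 67 by more and 0 changed sign where the member was called.

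The replicate numbers of the titles did not pair the libraries: deviations of same-numbered libraries had a mean correlation of -0.012 over 15 pairs, 1 of them over 0.1, and 2 of 15 libraries were closest to their own number. With the replicate block, 46 members were called higher in transgenic than control, 16 lower in knockout than control, and 48 higher and 0 lower in transgenic than knockout.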
